A study of Homo sapiens with 26 samples.

Results

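The sites described here are genomic regions that were recovered by 2 immunoprecipitations in sequence, of the estrogen receptor (ER) and then of the progesterone receptor (PR), from T47D cells given estradiol and the progestin R5020 together. They coincided with an ER site of PR-deficient cells, and with no site of the single ER or PR immunoprecipitation of T47D cells under the same 2 hormones. A site of the sequential immunoprecipitation (reChIP) was taken as a member when it overlapped by 1 bp or more an ER site of PR-deficient T47D cells given estradiol (E2) or E2+R5020, and no ER or PR site of T47D cells given E2+R5020. This left 903 of 9861 reChIP sites, or 9.16% (exact 95% interval 8.60 to 9.74, for counting error over sites only). The members were thus chosen by measured overlaps in these 4 lists, which are given as a description, without a test. Overlaps in the other 5 lists, lengths, scores and positions did not enter the rule.

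The groups were PR-deficient T47D cells treated with E2, R5020 or E2+R5020 (ER ChIP-seq), and T47D cells treated with E2, R5020 or E2+R5020 (ER ChIP-seq, PR ChIP-seq and, for E2+R5020, the reChIP). Each hormone was given at 10 nM for 45 min to cells first deprived of steroids, and per the labels each list was made after subtraction of a vehicle library, for the reChIP of IgG as well. T47D cells are a long-established line from a human luminal breast tumour, with ER and PR. The labels do not say how PR was lost from the PR-deficient cells or whether they are 1 clone, and other differences between the lines cannot be told apart from the loss of PR. The 10 lists came from 10 libraries of 10 groups, so no value has a replicate error, no condition was tested, and sites of 1 library are not replicates.

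ER and PR are nuclear receptors that bind DNA as dimers once a steroid ligand is present, ER at estrogen response elements and PR at hormone response elements that other steroid receptors can share. R5020 is a synthetic ligand of PR. In luminal breast cancer cells both receptors bind mainly at distal enhancers that pioneer factors such as FOXA1 hold open. In a reChIP, chromatin pulled down with the first antibody is released and pulled down again with the second, so that a recovered fragment should have carried both proteins. An ER map of PR-deficient cells shows where ER is found when little or no PR is there.

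The score of a site is the authors' own value and rose in even steps, 8.66 in the reChIP list, where the lowest site had 3 steps and the median site 6. Scores were therefore used within a list only. The depth of the libraries is unknown. Lists differed in width. ER sites of PR-deficient cells had a median length of 1076.5 bp with E2 (7742 sites) and 1329 bp with E2+R5020 (5663 sites), against 276 bp for reChIP sites, 209 bp for T47D ER sites with E2+R5020 (19220 sites) and 292 bp for T47D PR sites with E2+R5020 (11908 sites). The E2 and E2+R5020 lists of PR-deficient cells covered 9.92 Mb and 8.90 Mb, and the T47D ER and PR lists of E2+R5020 covered 4.77 Mb and 3.99 Mb. Outside the rule, the T47D ER list of E2 was wide too (median 1171 bp, 4014 sites), and the PR-deficient R5020 list was narrow (236 bp, 9141 sites), with 81.2% of its sites within 1 step of its lowest score. With every site set to 200 bp around its centre, 494 sites met the rule in place of 903. The sequence and annotation of the hg19 build, on which all positions are given, were not used here, so sites are named by position and no gene is assigned.

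Most members lay at an ER site of PR-deficient cells with both treatments. Of the 903, 588 overlapped a site of both lists (65.1%, 61.9 to 68.2), 177 a site of the E2 list alone (19.6%, 17.1 to 22.3) and 138 a site of the E2+R5020 list alone (15.3%, 13 to 17.8). Another 803 reChIP sites overlapped a PR-deficient list and also a T47D list of E2+R5020, and 74.2% of them (71.0 to 77.2) were in both PR-deficient lists, 21.8% in the E2 list alone and 3.99% (2.74 to 5.58) in the E2+R5020 list alone. A further 1756 reChIP sites overlapped a T47D E2+R5020 list alone, and 6399 overlapped none of the 4 lists. Over all reChIP sites, 15.6% overlapped the PR-deficient E2 list and 13.7% the PR-deficient E2+R5020 list. The ER list of T47D cells with E2+R5020 held 19.5% of them and the PR list 12.2%.

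Most members lay wholly within their ER sites, which were wider by median, and the part of width in this was not tested. Of the 765 members at an E2 site of PR-deficient cells, 702 lay wholly within it (91.8%, 89.6 to 93.6), and the median distance between the 2 centres was 239.5 bp. Of the 726 at an E2+R5020 site, 681 lay wholly within it (93.8%, 91.8 to 95.4), with a median distance of 292 bp. Of the reChIP sites that were also in a T47D E2+R5020 list, similar shares, 89.4% and 90.6%, lay wholly within the ER site. These reChIP sites lay closer to the centre, with medians of 130.5 bp and 167 bp. Their ER sites were narrower, with medians of 1293 bp with E2 and 1446 bp with E2+R5020, against 1559.5 bp and 1788 bp for those that held members. An overlap of under 50 bp was found for 6 members in the E2 list and 2 in the E2+R5020 list. When each member was taken by its longest overlap, the lowest were chr14:106133021-106133462, at 17 bp, chr10:80889112-80889343, at 40 bp, and chr17:19551332-19551777, at 42 bp.

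Members were more frequent at strong ER sites of PR-deficient cells than at weak ones. In the E2 list, 252 of the 1549 sites of the highest-scoring quintile held a member (16.3%, 14.5 to 18.2), against 80 of the 1548 of the lowest (5.17%, 4.12 to 6.39). In the E2+R5020 list the shares were 21.5% (19.2 to 24.0) and 6.71% (5.33 to 8.33). The highest quintile was also wider, with medians of 1361 bp and 908 bp in the E2 list. Per Mb of listed DNA, the E2 list had 101 sites with a member in the highest quintile and 47 in the lowest. In the E2+R5020 list the values were 119, 75.2, 43.3, 53.8 and 50.3 from the highest to the lowest quintile. A site with several members counted as 1, and the part of width was not tested. In all, 664 of 7742 E2 sites (8.58%) and 625 of 5663 E2+R5020 sites (11.0%) held at least 1 member, and 78 E2 sites held several, up to 9. reChIP sites that were also in a T47D E2+R5020 list were concentrated further in the highest quintile, which held one in 24.0% of its E2 sites, against 2.52% of the lowest quintile.

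**Figure D1:**
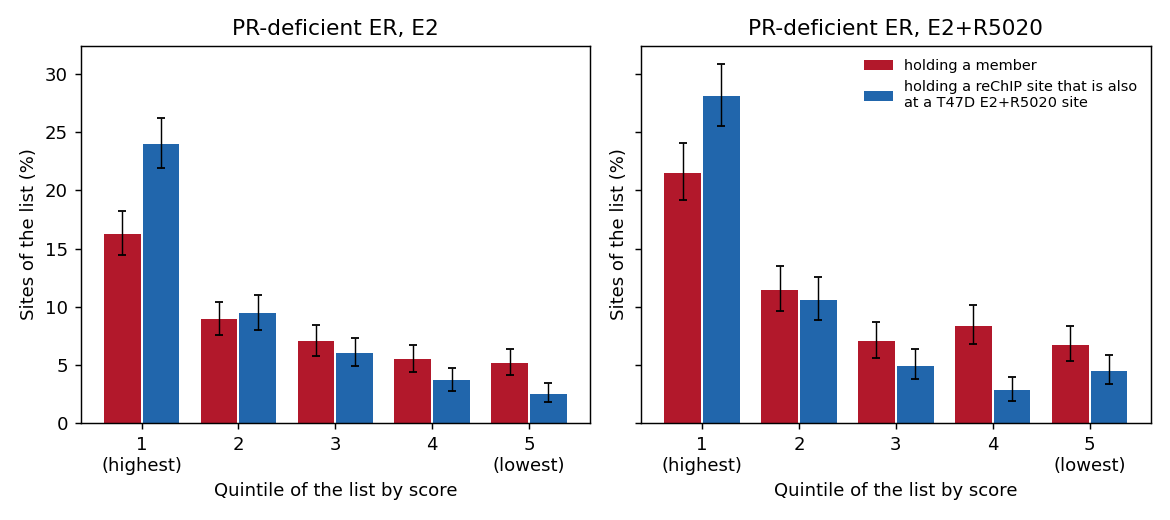
Share of ER sites of PR-deficient cells (y axis, %) that held a member (red) or a reChIP site also at a T47D E2+R5020 site (blue), by quintile of the list's score (x axis), with exact 95% intervals for counting error. Both shares were highest in the highest-scoring quintile, where members were at 16.3% of the E2 sites and 21.5% of the E2+R5020 sites.

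Of the 5 lists that the rule did not use, 2 held the members more often than the reChIP list as a whole. The R5020 ER list of PR-deficient cells overlapped 159 members (17.6%, 15.2 to 20.3), against a background of 8.35% of all reChIP sites. The E2 ER list of T47D cells overlapped 131 members (14.5%, 12.3 to 17.0), against a background of 7.21%. The 3 other lists held few of the members: 15 (1.66%, 0.933 to 2.73) were in the T47D ER list of R5020, with a background of 4.75%, 9 (0.997%, 0.457 to 1.88) in the T47D PR list of E2, with 1.82%, and 8 (0.886%, 0.383 to 1.74) in the T47D PR list of R5020, with 2.43%. None of the 5 lists held 592 members (65.6%, 62.4 to 68.7), against 78.5% of all reChIP sites, and 10 members (1.11%) were in 2 or more, against 2.55%. No test of these differences was made, since each list is 1 library. The rule takes out the 803 reChIP sites at both a PR-deficient and a T47D E2+R5020 list. Of these, 44.8% were in the T47D ER list of E2 and 18.3% in that of R5020. In the T47D PR lists of E2 and R5020 the shares were 4.23% and 8.84%. Each lay above the members' share, and the part of this in the members' T47D shares was not tested. The rule also places every member at an ER site of PR-deficient cells. Of those E2 and E2+R5020 sites as a whole, 29% and 25% were in the T47D ER list of E2. In the PR-deficient R5020 list the shares were 14.7% and 25.1%. The members' 14.5% lay below the first pair, and their 17.6% lay within the second. These pairs count whole ER sites, which were wider than reChIP sites by median and include sites at T47D E2+R5020 sites. The members' shares count reChIP sites, so the values are not like for like. The part of the placing at PR-deficient ER sites in the 2 higher shares was not tested. With all sites set to 200 bp, the share in the T47D ER list of E2 was 16.6%, against 3.66% of other reChIP sites. The share in the PR-deficient R5020 list was less stable. It was 10.5%, against 5.12% of other sites, when the lowest score of every list was raised by 1 step. When every overlap, also with an excluded list, had to cover 50% of both sites, it was 4.55% (1.69 to 9.63), against 3.85%.

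**Figure D2:**
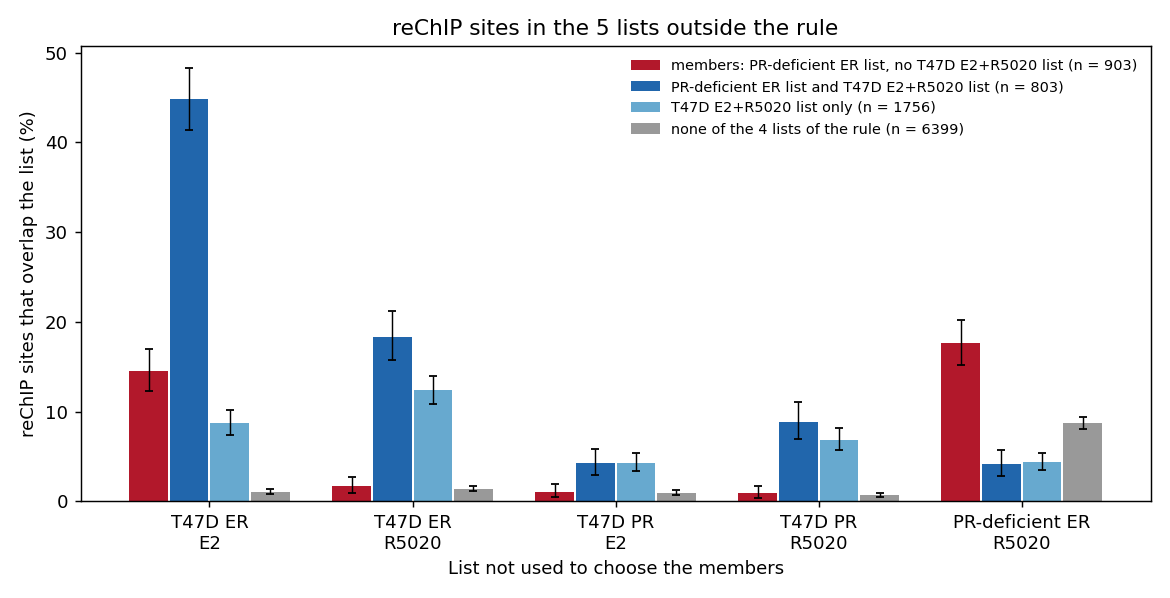
Share of reChIP sites (y axis, %) that overlapped each of the 5 lists outside the rule (x axis), for the 903 members (red) and the 3 other classes of reChIP sites, with exact 95% intervals for counting error. Members stand at 14.5% in the T47D ER list of E2, between 44.8% and 1.05% for other classes, and at 17.6% in the PR-deficient ER list of R5020, above 3 classes of 4.11 to 8.67%.

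The 3 other classes of reChIP sites were set beside the members list by list. In the T47D ER list of E2, the members' 14.5% lay below the 44.8% (41.4 to 48.3) of reChIP sites at both a PR-deficient and a T47D E2+R5020 site, above the 8.71% (7.44 to 10.1) of those at a T47D E2+R5020 site alone and above the 1.05% (0.812 to 1.33) of those at none of the 4 lists. In the T47D PR lists, the members' 0.997% with E2 and 0.886% with R5020 stood beside 0.953% (0.730 to 1.22) and 0.641% (0.460 to 0.868) of the sites at none of the 4 lists, with overlapping intervals. In the T47D ER list of R5020 the members' 1.66% likewise stood beside 1.39% (1.12 to 1.71). In the PR-deficient R5020 list the members' 17.6% stood above the 8.67% (7.99 to 9.39) of sites at none of the 4 lists. The sites at a T47D E2+R5020 list, with or without a PR-deficient site, were at 4.11% (2.85 to 5.72) and 4.33% (3.42 to 5.39). All 3 lists of PR-deficient cells share a subtracted vehicle library, whose part in this overlap was not tested.

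The 2 overlaps were ordered oppositely over the split of the members by treatment. Of the members at an E2 site alone, 12.4% (7.96 to 18.2) were in the PR-deficient R5020 list and 22% (16.2 to 28.9) in the T47D ER list of E2. For members at both lists the shares were 16.8% (13.9 to 20.1) and 14.3% (11.6 to 17.4). For members at an E2+R5020 site alone they were 27.5% (20.3 to 35.8) and 5.80% (2.54 to 11.1). The whole lists were ordered alike, with 14.7% of the E2 sites and 25.1% of the E2+R5020 sites of PR-deficient cells in their R5020 list, and 29% and 25% in the T47D ER list of E2.

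The members held by these 2 lists were compared. Of the 131 members in the T47D ER list of E2 and the 159 in the PR-deficient R5020 list, 2 were in both (1.53% and 1.26%). Over all reChIP sites the overlap was similarly small, with 13 in both lists (1.83% of 711 and 1.58% of 823). The first set had low reChIP scores: its median was 5 steps (quartiles 4 and 7, highest 14), none of it ranked among the 1000 highest reChIP sites, and its median length was 297 bp. The second set had a median of 7 steps (quartiles 5 and 11.5, highest 84) and a median length of 359 bp, and 29 of it (18.2%) ranked among those 1000. The ER sites that held the first set were also narrower, with a median of 1028 bp in the PR-deficient E2 list against 1892 bp for the second. By score, those ER sites had median percentiles of 69.2 for the first set and 67.8 for the second in the E2 list, and of 72.8 and 57.0 in the E2+R5020 list. The 592 members in none of the 5 lists had a median of 6 steps and a median length of 343 bp, and 47 (7.94%) ranked among the 1000.

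Ordered by reChIP score, the 2 overlaps of the members ran in opposite directions. In the highest-scoring quintile of the reChIP list, 4 of 167 members (2.40%, 0.656 to 6.02) were in the T47D ER list of E2, and in the next 4 quintiles the share was between 14.5% and 20.9%. In the PR-deficient R5020 list the share was 28.1% (21.5 to 35.6) in the highest quintile (25.9%, 19.4 to 33.4, without 5 members of the chromosome 6 stretch described last), 19.5% in the second and between 12.4% and 14.9% in the other 3. Sites at none of the 4 lists of the rule showed 0.156% in the highest quintile and 1.10% in the lowest for the T47D list, and 6.63% and 7.10% for the PR-deficient R5020 list. For the T47D list, reChIP sites at both kinds of list showed 37.5% and 50.6% in those quintiles. Those at a T47D E2+R5020 list alone showed 15.5% and 4.87%. For the PR-deficient R5020 list these classes showed 5.61% and 2.53%, and 7.11% and 4.30%. The rule assigns sites at T47D E2+R5020 sites to these classes, and its part in the members' 2.40% was not tested. By length, members over the reChIP median length were in the PR-deficient R5020 list in 17.8% and shorter ones in 17.2%, and in the T47D E2 list in 12.9% and 18.3%.

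**Figure D3:**
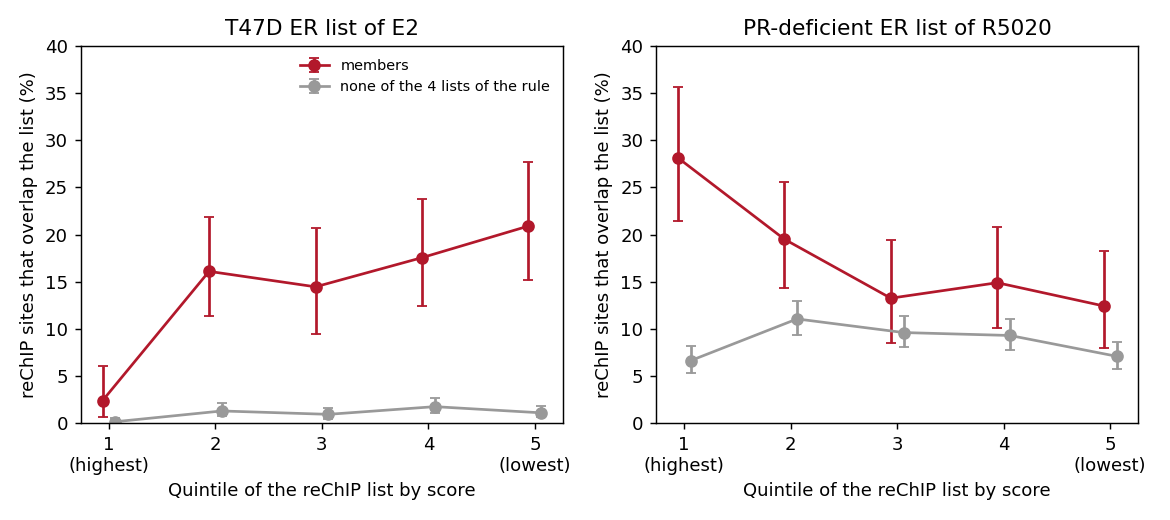
Share of reChIP sites (y axis, %) in the T47D ER list of E2 (left) and the PR-deficient ER list of R5020 (right), by quintile of reChIP score (x axis), for members (red) and for reChIP sites at none of the 4 lists of the rule (grey), with exact 95% intervals for counting error. Members of the highest quintile were at 2.40% on the left and 28.1% on the right.

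Over the whole set, reChIP scores of the members did not stand apart. Their median was 6 steps (quartiles 5 and 9, range 3 to 122), as over all reChIP sites, and 166 (18.4%) had 3 or 4 steps, against 15.9% of all. reChIP sites at both a PR-deficient and a T47D E2+R5020 site had a median of 8 steps (quartiles 6 and 13). Of the 100 highest reChIP scores, 11 were members, 10 were at both kinds of list, 5 at a T47D E2+R5020 list alone and 74 at none of the 4. Members were longer, with a median of 341 bp (quartiles 261 and 503), against 276 bp for all reChIP sites (203 and 412). A longer site meets other sites more easily, and the part of length in the choice was not tested.

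The highest-scoring members lay at listed ER sites of both treatments of PR-deficient cells. The member of highest score was chr17:80571641-80572738, second in the reChIP list with a score of 1056.65 (122 steps). Its ER sites ranked 404 of the E2 list and 335 of the E2+R5020 list, and none of the 5 other lists held it. The nearest T47D ER site of E2+R5020 was 28307 bp away and the nearest PR site 28722 bp. The next was chr4:1238885-1239862, at rank 10 with 94 steps. A T47D ER site of E2+R5020 lay only 55 bp away, and a PR-deficient ER site that held this member overlapped a T47D site of E2+R5020. The third, chr14:35872710-35873547 (rank 19, 84 steps), was also in the PR-deficient R5020 list and lay 3696 bp from a T47D PR site.

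The other 7 of the 10 highest were chr8:91013458-91014483, chr14:93483481-93484285, chr7:906377-907628, chr16:2768878-2769871, chr2:65527165-65527880, chr16:1240541-1242261 and chr16:89219944-89221010, with scores between 684.22 and 476.36. Several of them were at leading ER sites of PR-deficient cells. chr16:1240541-1242261 lay in the site ranked 8 with E2 and 4 with E2+R5020, which was 4182 bp and 6260 bp wide. chr14:93483481-93484285 lay in the sites ranked 16 and 12, and chr7:906377-907628 in those ranked 18 and 21. Of the 10, 5 were in the PR-deficient R5020 list and none was in a T47D list of E2 or R5020. Over all members the share was 17.6% in each case, and over all reChIP sites 8.35% and 13.8%. With 10 sites chosen by score, no difference was tested.

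Members in the T47D ER list of E2 were led by chr11:63325984-63326496, at rank 1369 with 14 steps. It was also in the T47D ER list of R5020, and the nearest ER site of E2+R5020 was 8242 bp away. It was followed by chr12:125211780-125212376, chr2:217957402-217957960 and chr9:137286739-137287193, each with 11 steps, and chrX:119619624-119620117, with 10. The 10 members in 2 or more unused lists were led by chr10:65390178-65391083 (39 steps), chr16:67207540-67208371 (24) and chr8:67434393-67435193 (22), each in the T47D PR list and the PR-deficient ER list of R5020. The member on chromosome 11 just described was next, and chr11:44586026-44586447 (12 steps), again in that pair of lists, was the fifth. Of those 10, 5 had this pair of lists, although 8 members in all were in the T47D PR list of R5020.

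The 3 highest-scoring members of each single PR-deficient list were set beside the rank of their ER site. The highest-scoring at an E2 site alone were chr21:47504577-47505812 (41 steps), chr6:152265292-152265658 (38) and chr6:152332769-152332952 (37), at listed ER sites ranked 4774, 5033 and 6394 of 7742. Both on chromosome 6 belong to a stretch, described last, whose signal may not be receptor binding, which was not tested. Those at an E2+R5020 site alone were chr14:59950432-59951105 (38 steps), chr17:80061651-80062340 (26) and chr7:2669777-2670443 (22), at ER sites ranked 5097, 46 and 4152 of 5663. The member on chromosome 17 lay in an ER site of 4861 bp.

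The median distance from a member to the nearest T47D ER or PR site of E2+R5020 was 8347 bp (quartiles 2018 and 26230.5), against 6594 bp (1303.5 and 27112.5) for the 6399 reChIP sites at none of the 4 lists. Without chromosome Y and the flanks of long stretches without sites, the order turned, with 8347 bp for members against 11343 bp. Within 1 kb of such a site were 158 members (17.5%) and 21.7% of those other sites. Beyond 100 kb were 42 members (4.65%), against 9.17%. Taken by receptor, the medians were 20444 bp to ER sites and 23376 bp to PR sites for members, against 15760 bp and 39025 bp.

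**Figure D4:**
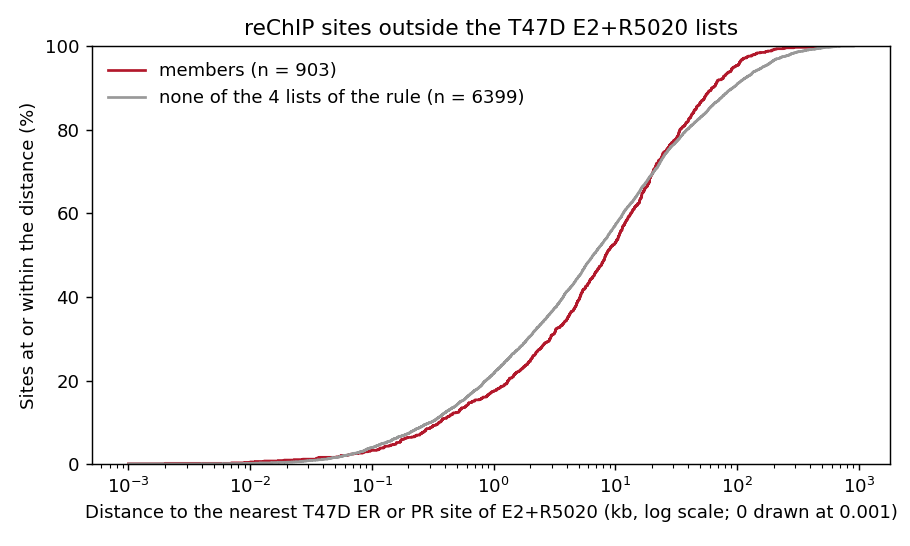
Share of reChIP sites (y axis, %) at or within a distance (x axis, kb, log scale) of the nearest T47D ER or PR site of E2+R5020, for members (red) and reChIP sites at none of the 4 lists of the rule (grey). The medians are 8347 bp and 6594 bp, and the curves cross, with 4.65% of members and 9.17% of the other sites beyond 100 kb.

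Some members shared their PR-deficient ER site with an excluded T47D site. For 160 members (17.7%, 15.3 to 20.4) the PR-deficient ER site itself overlapped a T47D ER or PR site of E2+R5020 elsewhere along its length. The other 743 lay in PR-deficient ER sites with no such site. The member nearest to an excluded site was chr17:72391032-72391198, which touched a T47D PR site with no base between them. It was followed by chr17:76778866-76779031, at 2 bp from an ER site, and chr16:608749-608889, at 7 bp from an ER site. On the other side of the rule, chr4:7920216-7920463, chr14:77493975-77494321 and chr6:3457419-3457736 were kept out by overlaps of 3, 7 and 16 bp.

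Members were spread unevenly over chromosomes. On chromosome 14, 76 of 363 reChIP sites were members (20.9%, 16.9 to 25.5), 49 of 321 on chromosome 20 were (15.3%, 11.5 to 19.7), 69 of 465 on chromosome 17 (14.8%, 11.7 to 18.4) and 74 of 550 on chromosome 3 (13.5%, 10.7 to 16.6), against 9.16% over all. Chromosome 2 was at 3.97% (2.51 to 5.95), chromosome 4 at 4.32%, chromosome X at 2.36% (0.953 to 4.80) and chromosome Y at 0.671%. Per 100 ER sites in the 2 lists of PR-deficient cells, chromosome 14 had 12.3 members, chromosome 16 had 10.4 and chromosome 3 had 9.91, against 3.37 on chromosome 2 and 4.09 on chromosome 1. On chromosome 4 the 2 measures parted, with 8.75 members per 100 of these listed sites. Chromosome Y had 5 such sites and 2 members. Members were counted 1 by 1, although some lay in runs. Chromosome 3 had a run of 5 members between 195918757 and 195922880. Chromosome 14 had runs of 3 between 105933583 and 105935523 and between 106174512 and 106179116. The intervals take no account of this, and its part in the shares of the chromosomes was not tested.

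**Figure D5:**
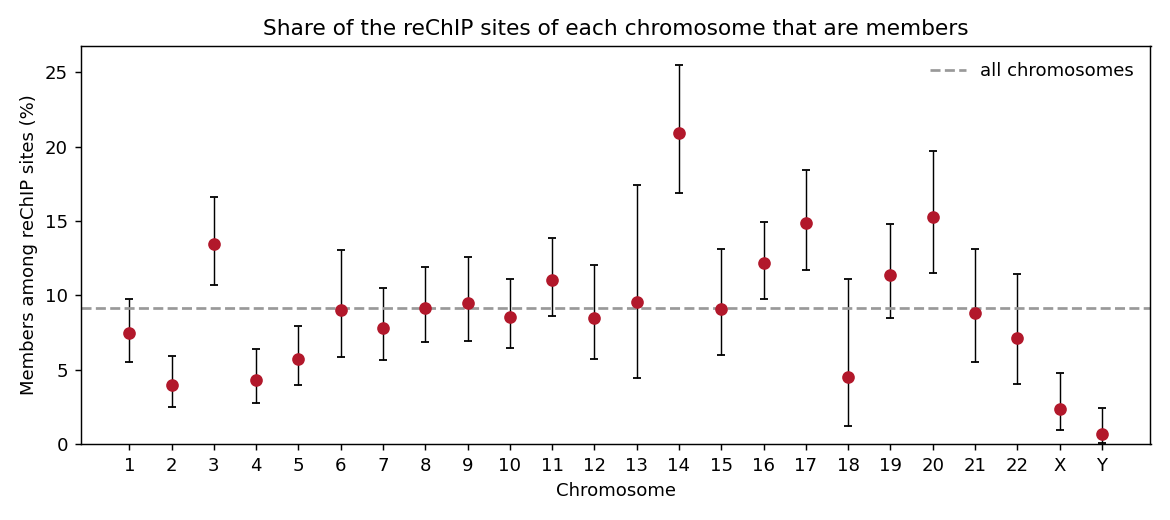
Share of the reChIP sites of each chromosome that were members (y axis, %; x axis, chromosome), with exact 95% intervals for counting error; the dashed line is the share over all chromosomes, 9.16%. Chromosome 14 stands highest at 20.9%, and chromosomes 2, 4, X and Y are among the lowest.

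Members lay near chromosome ends in a larger share than the sites of any of the 10 lists. Within 5 Mb of the first or last listed position of a chromosome (first positions of the acrocentric chromosomes not counted) were 298 members (33.0%, 29.9 to 36.2), against 23.8% (22.9 to 24.6) of all reChIP sites. The share was 16.9% in the PR-deficient E2 list and 19.3% in the PR-deficient E2+R5020 list. It was 10.8% in the T47D ER list and 21.3% in the T47D PR list of E2+R5020, 14% in the T47D ER list of E2 and 24.3% in the PR-deficient R5020 list. Among members the share was 35.8% (28.4 to 43.8) for those in the PR-deficient R5020 list and 22.1% (15.4 to 30.2) for those in the T47D ER list of E2. It was 34.8% for members in none of the 5 lists.

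Some members were grouped. Within 10 kb of another member lay 275 (30.5%, 27.5 to 33.6), against 29.1% of the 803 sites at both kinds of list and 50.8% of the 6399 at none of the 4 lists, which is the largest class. There were 85 pairs and 28 runs of 3 or more. The longest run held 11 members between 88983654 and 89004218 of chromosome 16, with scores up to 277.15 (hg19). The next were 6 members between 197417 and 200303 of chromosome 19 and 5 between 195918757 and 195922880 of chromosome 3. Members of a run can share an ER site and are not independent. Of the 28 runs, 27 held no member in the T47D ER list of E2, and the exception, between 121154304 and 121157187 of chromosome 2, held 2 of 3. That list held 14.5% of all members and 7.21% of all reChIP sites. Runs of the other classes were not set against it.

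A stretch of chromosome 6 was singled out after its values were seen. It holds 2 of the sites named above. Between 152128860 and 152420182, over 291 kb, the reChIP list had 8 sites, with scores between 233.85 and 337.78, all among its 513 highest. Of these, 7 were under 500 bp and the shortest was 173 bp. Members made up 5 of the 8, and the same 5 were in the PR-deficient R5020 list. The edges ran close for some of these 5. chr6:152332769-152332952 met an R5020 ER site at 152332783 to 152332938, chr6:152265292-152265658 met one at 152265304 to 152265642, and chr6:152415498-152415720 met one at 152415510 to 152415711. The edges were further apart for the others. chr6:152128860-152129620 met one at 152129047 to 152129509, and chr6:152419763-152420182 met one at 152419859 to 152420119. None of the 6 single-antibody lists of T47D cells had a site at any of the 8. Short sites of like score, some with close edges between libraries, may not be receptor binding, which was not tested. Which gene lies there was not analysed here. Without the stretch, 898 members were left, of which 17.1% were in the PR-deficient R5020 list and 14.6% in the T47D ER list of E2.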

How the data were processed

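ER and PR ChIP-seq and reChIP-seq were analysed from 10 lists of called sites. The submitters' processing notes name Bowtie2, MACS and hg19; versions and settings are not given in the sources used here. Vehicle (and, for the reChIP, IgG) was subtracted, per the labels. The deposited lists give chromosome, start, end, length and the authors' score, whose unit is not given; positions count from 1, and all scores were whole multiples of a step (within 0.02). Of 26 libraries in 26 groups, 16 (vehicle, input and IgG) were not analysed here.

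Overlap functions, tested on simulated data, ran under Python 3.11.15 (pandas 2.3.3, NumPy 2.4.6), intervals came from SciPy 1.17.1 and plots from matplotlib 3.10.9. Shares have Clopper-Pearson 95% intervals; distances count bases between sites. Ties in score were ordered by length, then position. The members and lists were chosen with earlier results of these data known. Named sites were the 10 members of highest score, the 5 highest in the T47D ER list of E2 and in 2 or more unused lists, the 3 highest of each PR-deficient class, and those nearest the rule's limits. The planned motif search and gene lists were not run. Other overlap rules, score thresholds, widths and site subsets were tried.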

Additional observations from a re-analysis of the deposited data

How the results depend on the processing

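No paired analysis was possible because no group had more than 1 library. No replicate was left out, depth is unknown, and intervals cover counting error only. In all 12 settings for which they were computed, the share of members in the T47D ER list of E2 and that in the PR-deficient R5020 list stayed above the share of other reChIP sites. Of 108 alternative values, 62 shares and medians stayed within the interval of the reported value and 7 counts of members within 1.5 times the reported count. The other 39 moved beyond these limits. For the score percentile the interval was the single value 46.9, so any change of it counted among the 39. No cause was tested.

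When an overlap had to cover 50% or more of both sites, 132 sites met the rule; 10.6% were in the T47D ER list of E2, 0.758% in that of R5020, 0 in either T47D PR list of 1 hormone and 4.55% in the PR-deficient R5020 list, with a median length of 613 bp, a median score percentile of 73.7 and a median distance of 2909 bp to a T47D E2+R5020 site, against 5241 bp for other sites. With centres within 200 bp, a limit that again applied to the excluded lists too, there were 497 members. Of these, 0.201% were in the T47D PR list of R5020 and 13.3% in the PR-deficient R5020 list. With the higher-scoring part of each list, there were 408, of which 10.05% were in the PR-deficient R5020 list, with a median length of 495 bp, percentile of 47.5 and distance of 20267 bp. With the lowest score raised by 1 step, 0.236% were in the T47D PR list of E2 and 10.5% in the PR-deficient R5020 list, with a percentile of 46.1 and a distance of 11018.5 bp. With sites set to 200 bp, there were 494, 0.202% in the T47D PR list of R5020 and 13.4% in the PR-deficient R5020 list. With lists cut to equal length, there were 421, with 18.3%, 3.09%, 1.90% and 9.26% in the T47D ER lists of E2 and R5020, the T47D PR list of R5020 and the PR-deficient R5020 list, a median length of 533 bp, a percentile of 45.0 (52.2 for other sites) and a distance of 37202 bp. Membership of both PR-deficient lists left 588, with a median length of 384 bp. The percentile was 52.7 without chromosome Y and gap flanks and 46.8 without chromosome 8, equal to that of other sites in each case. The distance was 12684.5 bp without members within 1000 bp of a T47D E2+R5020 site, against 12140 bp for other sites.

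3 settings were chosen after seeing the data. Members whose PR-deficient ER sites met no T47D E2+R5020 site numbered 743, at a median distance of 12735 bp. Members in no T47D list of a single antibody numbered 744. Without the chromosome 6 stretch there were 898, with a percentile of 46.96, equal to that of other sites. Motif shares and gene lists were not run, and a median length with all sites at 200 bp has no value.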

Other observations

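Apart from the runs already named, 5 members lay between 80916197 and 80922798 of chromosome 10 and 5 between 67777475 and 67786817 of chromosome 11 (hg19), with scores up to 138.58 and 216.53. A run of 4 members lay between 106133021 and 106139709 of chromosome 14, and that between 93477527 and 93484285 of the same chromosome reached a score of 649.58. The 17 members in a T47D PR list of 1 hormone had a median length of 619 bp and a median of 9 steps, against 341 bp and 6 steps over all members, and 5 of them were among the 1000 highest reChIP scores.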
